A study of Mus musculus with 8 samples.

Results

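The alpha-defensins of Paneth cells, called cryptdins in the mouse, were examined in intestinal epithelial cells (IECs) of mice with and without epithelial DDX5. The members were all genes of the deposited count tables whose symbol is Defa followed by a number, together with AY761184, an alpha-defensin gene listed under its clone name. There were 23 such genes among the 40178 listed in either table. All 23 were listed in the ileum table and 7 in the colon table, and a gene that a table did not list was counted as 0 there. A further 19 related rows fell outside this rule, being Defa pseudogenes or alpha-defensins that the tables carry under older Gm symbols.

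DDX5 is a DEAD-box RNA helicase. WTIEC mice were Ddx5+/+ and carried Villin1-Cre, a Cre transgene driven in the intestinal epithelium, and DDX5ΔIEC mice were Ddx5fl/fl and carried the same Cre, so that Cre was present in every library. The mice were healthy 8-week adults, and epithelial cells had been detached from the ileum and the colon with EDTA and were not sorted by cell type. RNA was sequenced from 2 mice of each genotype, and there were 2 ileum and 2 colon libraries a genotype, 8 in all. The study describes its mice as pairs of cohoused littermates, but the labels give only a replicate number. That same-numbered WTIEC and DDX5ΔIEC libraries form such a pair, and that same-numbered ileum and colon libraries come from 1 mouse, is assumed here and not stated. Because there were 2 libraries a group, an exact two-sided permutation test of a single gene cannot give a p below 0.333, and the tests below borrow the spread of all genes.

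Paneth cells sit at the base of small intestinal crypts, between the stem cells, and release granules of antimicrobial peptides into the crypt lumen. Alpha-defensins are made as precursors with a signal peptide and an acidic propiece, and in mice the metalloproteinase matrilysin (Mmp7) cuts them to the active form inside the cell. The genes arose by repeated duplication and lie next to each other. The mouse family also holds cryptdin-related sequence (CRS) genes, which share the signal peptide and propiece with the cryptdins but have a different mature part.

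The 23 genes lay on chromosome 8 of GRCm38 between positions 21025545 and 21735471. Of these, 21 were on the plus strand and both others, AY761184 and Defa29, on the minus strand. When coding sequences of at least 95% identity were joined, 7 groups of sequence resulted. The Defa24 group held Defa24, Defa30, Defa17, Defa3, Defa23 and Defa31, the Defa5 group held Defa5, Defa34, Defa35, Defa36 and Defa37, and the Defa2 group held Defa2, Defa20, Defa32 and Defa33. Defa21 and Defa22 formed a pair with 99.3% identity, Defa25, Defa27 and Defa28 were joined, and Defa26 stood apart. AY761184 and Defa29 had 96.6% identity to each other and 61.0 to 65.6% to the other 21 members, and their coding sequences had 348 bases where Defa24 had 279. RefSeq lists CRS1C among the names of Defa29, and its gene at the place of AY761184, Defa39, has CRS1C-3 and CRS1C-6 as synonyms. This pair is called CRS1C-type here.

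**Figure D1:**
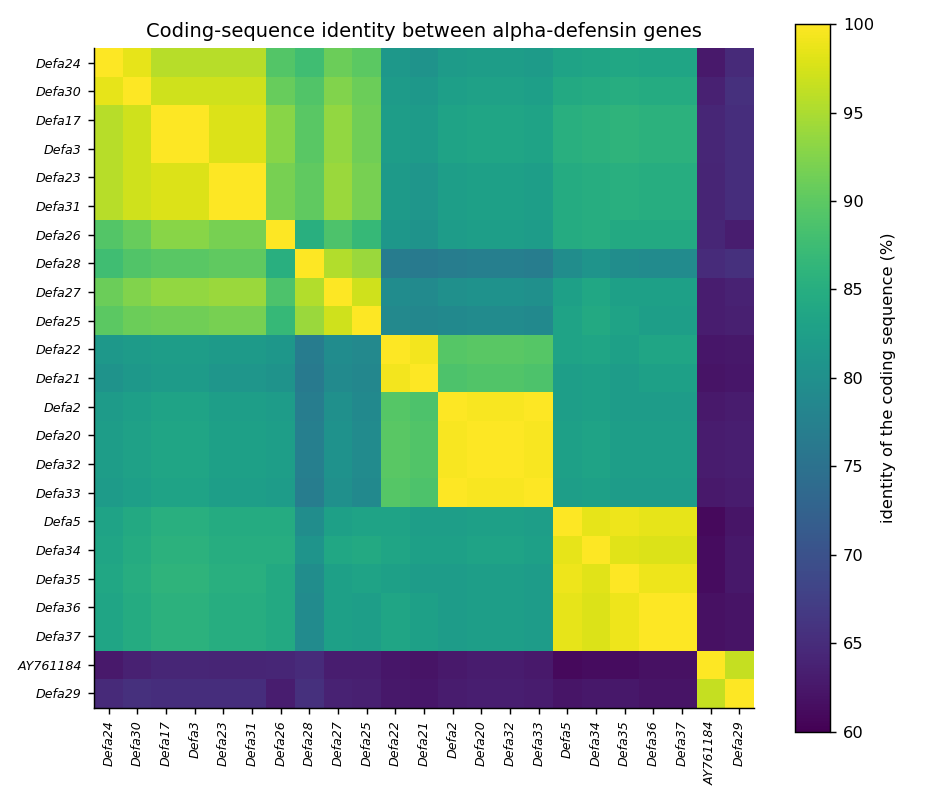
Identity of the coding sequence, in percent, between each 2 of the 23 alpha-defensin genes, ordered by sequence group. The bright squares on the diagonal are the sequence groups, and AY761184 and Defa29 form the dark band, with 61.0 to 65.6% identity to the other 21 genes.

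The coding part of each gene's second coding exon, which carries the mature peptide, shows how the groups differ. These sequences were read from the GENCODE vM21 transcripts (GRCm38), 5′ to 3′ on the coding strand. In the following 5 genes, capitals mark bases that differ from Defa24 after alignment.
Defa24 (chr8:21735268-21735374, plus strand): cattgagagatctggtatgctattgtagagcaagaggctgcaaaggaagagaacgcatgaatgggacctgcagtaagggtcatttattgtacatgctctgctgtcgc
Defa30 (chr8:21135394-21135500, plus strand): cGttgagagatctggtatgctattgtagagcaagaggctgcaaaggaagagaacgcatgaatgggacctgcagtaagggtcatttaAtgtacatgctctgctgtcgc
Defa22 (chr8:21163046-21163152, plus strand): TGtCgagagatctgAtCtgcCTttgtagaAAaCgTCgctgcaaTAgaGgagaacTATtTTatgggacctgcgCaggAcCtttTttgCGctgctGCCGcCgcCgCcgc
Defa2 (chr8:21379287-21379399, plus strand): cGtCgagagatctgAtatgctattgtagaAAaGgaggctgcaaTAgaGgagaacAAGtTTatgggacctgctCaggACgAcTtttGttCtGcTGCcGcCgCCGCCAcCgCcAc
Defa5 (chr8:21298172-21298278, plus strand): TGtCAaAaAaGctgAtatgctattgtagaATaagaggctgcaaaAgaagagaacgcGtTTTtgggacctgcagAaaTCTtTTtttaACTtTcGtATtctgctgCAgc
Defa30 differed from Defa24 at 2 of 107 aligned positions, and Defa5 at 30 of 107. Defa34 and Defa35 had the same second coding exon as Defa5, Defa3 the same as Defa17, and Defa20 and Defa32 the same as Defa2. The CRS1C-type pair had 176 bases in this exon and is shown separately, with capitals for bases of AY761184 that differ from Defa29.
Defa29 (chr8:21326002-21326177, minus strand): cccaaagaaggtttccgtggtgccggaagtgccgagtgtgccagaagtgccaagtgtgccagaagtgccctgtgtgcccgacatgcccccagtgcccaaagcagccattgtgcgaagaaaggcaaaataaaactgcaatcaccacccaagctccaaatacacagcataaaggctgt
AY761184 (chr8:21702631-21702806, minus strand): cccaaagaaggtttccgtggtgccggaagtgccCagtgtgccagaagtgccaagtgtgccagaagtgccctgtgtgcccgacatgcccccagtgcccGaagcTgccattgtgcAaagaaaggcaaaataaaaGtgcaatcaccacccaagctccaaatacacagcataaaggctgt
AY761184 differed from Defa29 at 5 of 176 positions in this exon and at 12 of 348 in the whole coding sequence.

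The likeness of these genes limits what counts can say, since only uniquely mapped reads were counted. Of the possible 100-base words in each gene's transcripts, 0% of those of Defa24 and of AY761184 occurred in a transcript of another gene, 0.334% of those of Defa30 and 11.0% of those of Defa29. The share was 40.4% in Defa21 and 40.3% in Defa22, 88.1% in Defa5, 90.6% in Defa17, and 100% in Defa2, Defa31, Defa33 and Defa37. Reads were paired, so a pair can be unique where its words are not. Values of Defa2, Defa3, Defa5, Defa17, Defa20, Defa23, Defa31, Defa32, Defa33, Defa34, Defa36 and Defa37 are therefore uncertain as levels of the single gene. A short gene also lies within each CRS1C-type gene on the same strand, Gm23561 in Defa29 and Gm22447 in AY761184.

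The 8 libraries held 11571061 to 22984283 counts. Counts were scaled to counts per 1000000 counts (CPM) by the trimmed mean of M values (TMM), over the 4 ileum libraries for the levels and genotype comparison in the ileum, and over all 8 libraries for Ddx5 and the comparison of tissues, so that a gene's CPM differs between these scalings. Ddx5, the deleted gene, had 700 CPM in both WTIEC ileum libraries and 340 and 326 in the DDX5ΔIEC ileum libraries, and it was 706 to 771 in WTIEC colon and 355 to 367 in DDX5ΔIEC colon. Fabp6, the ileal bile acid-binding protein, was at 825 to 1969 CPM without TMM scaling in the ileum libraries and at 1.38 to 4.01 in the colon libraries. Gm10800, Gm10801 and Gm21738, genes of repeat-like sequence, together took 19.5% of the counts in the library of DDX5ΔIEC ileum 2 and 0.226 to 4.04% in the other ileum libraries. With those 3 genes left out, the number of genes called in the ileum fell from 98 to 20 and Ddx5 lost its call (adjusted p = 0.056 by edgeR, against 0.027), while AY761184 and Defa29 were called with and without them (adjusted p = 0.029 for each without them).

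Alpha-defensins were among the abundant transcripts of the ileal epithelium. The 23 genes summed to 246251 counts (1.07% of the library) in WTIEC ileum 1 and 102643 (0.690%) in WTIEC ileum 2. They summed to 121148 counts (1.03%) in DDX5ΔIEC ileum 1 and 114384 (0.989%) in DDX5ΔIEC ileum 2. WTIEC 2 was the lowest of the 4 and the groups overlapped. Without the repeat-like genes in the denominator, the shares were 1.12% and 0.718% in WTIEC and 1.03% and 1.23% in DDX5ΔIEC ileum, which overlapped as well. In bulk RNA, fewer Paneth cells and less defensin RNA per Paneth cell cannot be told apart.

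Within the family Defa24 alone held 47.8, 52.9, 49.6 and 50.8% of the counts in WTIEC 1, WTIEC 2, DDX5ΔIEC 1 and DDX5ΔIEC 2. These are shares of uniquely mapped counts. Of the 100-base words, 0% were shared in Defa24, but 88.1% in Defa5 and 99.7% in Defa20 and Defa32. Groups that lose more reads get smaller shares, so the shares do not give the make-up of the family's RNA. The Defa24 group as a whole held 79.2 to 86.8%. The Defa21 and Defa22 pair held 12.1% in WTIEC 1 and 6.99% in WTIEC 2, and 8.78 and 6.74% in the DDX5ΔIEC libraries. The Defa2 group held 2.18 to 3.10%, the Defa5 group 2.00 to 4.30%, and Defa26 0.780 to 0.931%. The Defa28 group held at most 0.058%. The CRS1C-type pair held 1.17 and 0.790% in WTIEC, and 2.79 and 2.01% in DDX5ΔIEC. The pair's shares were the only ones of the 7 groups that lay higher in both DDX5ΔIEC mice than in both WTIEC mice. The Wilson 95% intervals of its shares were 1.13 to 1.21 and 0.738 to 0.846% in WTIEC, and 2.70 to 2.88 and 1.93 to 2.10% in DDX5ΔIEC, and cover counting error only.

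Levels of different genes were compared per kilobase of the listed exon length. Defa24 had a mean of 9942 ± 2523 CPM per kb in WTIEC ileum (SD, n = 2) and Defa30, its close relative, 5233 ± 1458, and the WTIEC values of these genes did not overlap. Next came Defa17 with 1446 ± 339, Defa22 with 1276 ± 822 and Defa21 with 753 ± 522, whose ranges overlapped from each gene to the next. Defa5 was at 466 ± 301, Defa2 at 273 ± 142, Defa20 at 260 ± 117, Defa26 at 195 ± 47.2 and Defa34 at 176 ± 123. Defa3 had 132 ± 46.7 and AY761184 121 ± 59.1, which made AY761184 the 12th of 23, and Defa29 had 48.8 ± 38.0. In the DDX5ΔIEC ileum AY761184 was at 337 ± 41.5 and Defa29 at 169 ± 47.5 CPM per kb. From Defa21 downwards, neighbours in this order overlapped except AY761184 and Defa29 and, further down, Defa32 and Defa28. Defa32, Defa28 and Defa35 were at 24.1 ± 13.7, 9.21 ± 0.112 and 6.24 ± 6.59 CPM per kb in WTIEC. The other 7 genes (Defa23, Defa25, Defa27, Defa31, Defa33, Defa36 and Defa37) had at most 17 counts in any ileum library and were not tested in the ileum. The share of 100-base words found in other genes was 89.1% in Defa23, 94.7% in Defa36 and 100% in Defa31, Defa33 and Defa37. It was 45.6% in Defa25 and 10.8% in Defa27. Where this share is high, few unique counts do not show a low level.

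**Figure D2:**
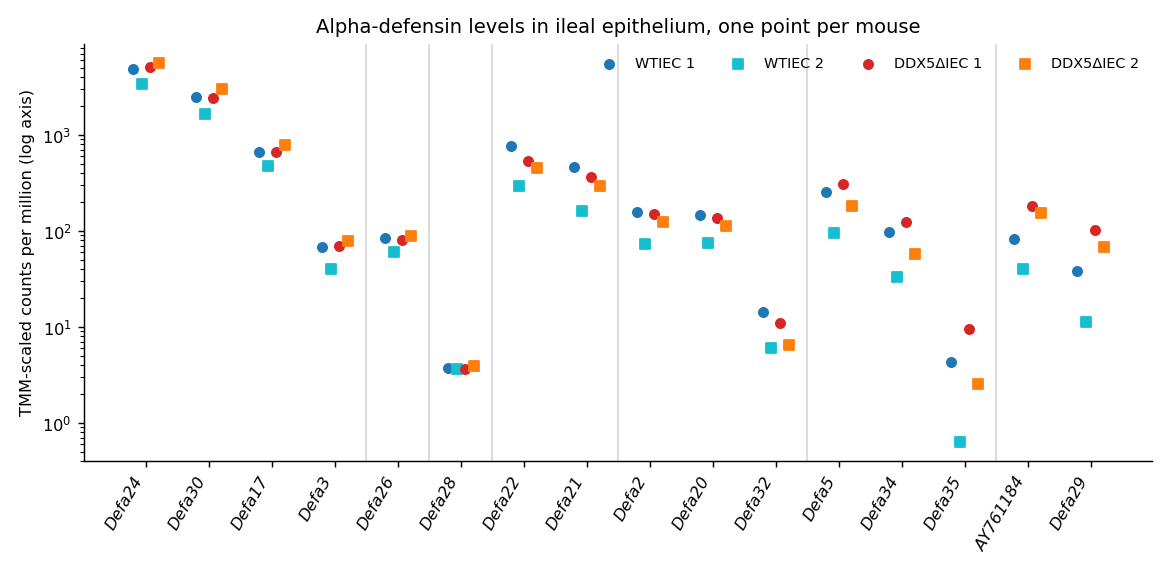
TMM-scaled CPM on a log axis for the 16 alpha-defensins tested in the ileum, 1 point for each mouse, with vertical lines between sequence groups. AY761184 and Defa29 are higher in both DDX5ΔIEC mice than in both WTIEC mice, and WTIEC 2 is the lowest point of each gene.

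The ileum of DDX5ΔIEC mice was compared with that of WTIEC littermates to ask which transcripts change without epithelial DDX5. Both CRS1C-type genes were higher in DDX5ΔIEC ileum, and no other alpha-defensin passed the test. AY761184 had 81.9 and 39.9 CPM in WTIEC and 184 and 155 CPM in DDX5ΔIEC mice, and Defa29 had 38.4 and 11.1 CPM against 103 and 68.9. For each of these genes both DDX5ΔIEC values were above both WTIEC values. When edgeR's quasi-likelihood fit took same-numbered libraries as a block, AY761184 rose 2.94-fold (log2 fold change 1.56 ± 0.19 SE, adjusted p = 0.0061). Defa29 rose 3.95-fold (log2 fold change 1.98 ± 0.23 SE, adjusted p = 0.0061).

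This made 2 of 16 tested members higher and 0 lower at an adjusted p under 0.05, while 0.697% of all 14068 tested genes were called in the same fit, 53 of them (0.377%) higher and 45 (0.32%) lower. The DDX5ΔIEC to WTIEC ratio of AY761184 was 2.25 between the libraries numbered 1 and 3.88 between those numbered 2, and that of Defa29 was 2.68 and 6.18. Relative to Defa24 in the same library, and so free of library scaling, the pair together had 24.5 and 14.9 counts per 1000 Defa24 counts in WTIEC, and 56.3 and 39.6 in DDX5ΔIEC. The calls rested on the block, and so on the assumed pairing: without the block the log2 fold changes were 1.47 for AY761184 and 1.78 for Defa29, and the adjusted p was 0.449 and 0.551. DESeq2 with the block called AY761184 (adjusted p = 5.4e-08) and not Defa29 (adjusted p = 0.093).

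Another CRS1C-type gene, Gm14851 (Defa38 in RefSeq, a paralog outside the rule that was chosen after its values were seen), had 97.4% coding identity to Defa29. It had 357 and 173 CPM in WTIEC and 441 and 458 CPM in DDX5ΔIEC ileum. Its log2 fold change was 0.85 ± 0.24 SE and did not pass the test (adjusted p = 0.167). Of the 19 related rows, 8 were tested and 0 were called. All 8 had a positive log2 fold change, of 0.23 to 1.07, with a median of 0.49.

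The Defa5 group gave the next largest log2 fold changes. Defa35 had 4.34 and 0.629 CPM in WTIEC and 9.61 and 2.53 CPM in DDX5ΔIEC ileum, and the groups overlapped. Its log2 fold change was 1.38 ± 0.30 SE (adjusted p = 0.076). Defa5 had 255 and 95.0 CPM in WTIEC and 308 and 182 CPM in DDX5ΔIEC, with a log2 fold change of 0.60 ± 0.18 SE (adjusted p = 0.188). Defa34 had 98.5 and 33.5 CPM against 125 and 58.1 CPM, with 0.56 ± 0.15 SE (adjusted p = 0.152). In all 3 genes each DDX5ΔIEC mouse was above the WTIEC mouse of the same number, while WTIEC 1 was above DDX5ΔIEC 2.

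No gene of the Defa24 group passed the test between genotypes, and the genotype difference was smaller than that between the WTIEC replicates and larger than that between the DDX5ΔIEC replicates. Defa24 had 4913 and 3418 CPM in WTIEC and 5107 and 5643 CPM in DDX5ΔIEC ileum, with a log2 fold change of 0.39 ± 0.29 SE (adjusted p = 0.65). Defa30 had 2493 and 1673 CPM against 2432 and 3051 CPM, with 0.42 ± 0.28 SE (adjusted p = 0.61). Defa17 was at 669 and 479 CPM against 672 and 788 CPM, with 0.36 ± 0.22 SE. Defa3 was at 67.5 and 40.4 CPM against 69.4 and 79.4 CPM, with 0.50 ± 0.20 SE (adjusted p = 0.33). In Defa24, Defa17 and Defa3 both DDX5ΔIEC values lay above both WTIEC values. Between the libraries numbered 1 these 4 genes had log2 ratios of DDX5ΔIEC to WTIEC of -0.04 to 0.06, and between those numbered 2 of 0.72 to 0.97.

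Defa22 had 778 and 291 CPM in WTIEC and 537 and 452 CPM in DDX5ΔIEC ileum, so that both DDX5ΔIEC values lay between the WTIEC values, and its log2 fold change was 0.05 ± 0.26 SE. This value turned to -0.11 without the block. Defa21 had 469 and 160 CPM against 368 and 298 CPM, with 0.27 ± 0.25 SE. Defa2 (159 and 73.7 CPM against 152 and 124 CPM), Defa20 (146 and 75.2 CPM against 136 and 112 CPM) and Defa32 (14.4 and 6.11 CPM against 11.1 and 6.41 CPM) had log2 fold changes of 0.34, 0.23 and -0.19. Defa26 (85.0 and 60.2 CPM against 80.3 and 89.0 CPM) had 0.24. Defa28 was the steadiest member, with 3.71 and 3.65 CPM in WTIEC and 3.66 and 3.89 CPM in DDX5ΔIEC ileum and a log2 fold change of 0.03 ± 0.27 SE.

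Over the 16 tested members, 15 had a positive log2 fold change, against 49.1% of all tested genes, and the median was 0.38 against -0.0046 over all genes. The median moved from 0.02 without WTIEC replicate 2 to 0.82 without WTIEC replicate 1, and was 0.09 without DDX5ΔIEC replicate 1. By the criterion of the study, an unadjusted p under 0.05 with a log2 fold change of at least 0.5, 6 members were higher and 0 lower (Defa29, AY761184, Defa35, Defa5, Defa34 and Defa3), where 3.87% of all tested genes were higher and 3.48% lower. Both DDX5ΔIEC mice were above both WTIEC mice in 5 members (Defa24, Defa17, Defa3, AY761184 and Defa29), against 19.0% of all tested genes, and below them in 0 members, against 20.5%. By the criterion of the study, 4 of the 8 tested related rows outside the rule were higher and 0 lower. Positive log2 fold changes also prevailed in some gene lists described below. They made up 10 of 11 tested Paneth granule genes (median 0.32), 8 of 9 ileal enterocyte genes (0.36) and 7 of 8 goblet cell genes (0.27). They made up 8 of 16 Paneth cell regulators, 6 of 11 crypt stem cell genes and 0 of 4 tuft cell genes. The members were measured in the same libraries, and near-identical members lose reads in the same stretches, so the 16 values are not independent.

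**Figure D3:**
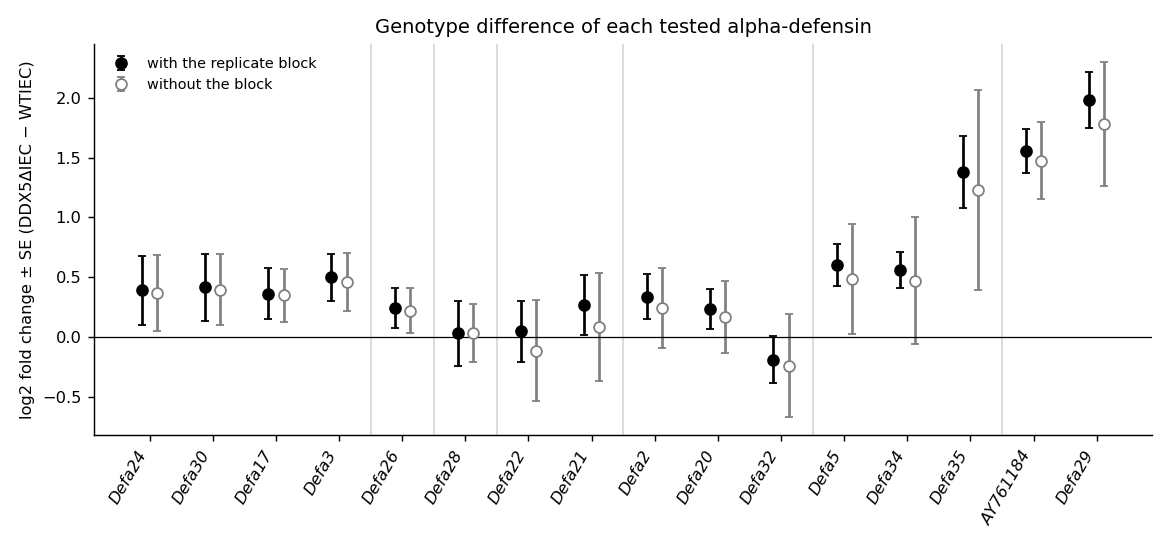
Log2 fold change of DDX5ΔIEC against WTIEC ileum for the 16 tested alpha-defensins, with bars of 1 SE, from the fit with the replicate number as a block (filled) and without it (open). AY761184 and Defa29 are at 1.56 and 1.98 with the block and at 1.47 and 1.78 without it, where the errors are wider.

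The ratio between the 2 mice of a genotype is given by sequence group, and these groups were set after values were seen. In WTIEC ileum the log2 ratio of mouse 2 to mouse 1 was -0.48 to -0.74 in the 4 tested genes of the Defa24 group, -0.50 in Defa26 and -0.02 in Defa28. It was -1.42 and -1.55 in Defa22 and Defa21, -0.95 to -1.23 in the Defa2 group, -1.43 to -2.79 in the Defa5 group, and -1.04 and -1.79 in the CRS1C-type pair. Over all tested genes the median ratio was 0.01, and the range from the 5th to the 95th percentile was -0.64 to 0.59. So 11 of the 16 members lay under the 5th percentile, being every tested gene of the last 4 groups and Defa3.

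Between the DDX5ΔIEC mice the groups differed in the sign of this ratio, but most ratios were within the usual range of all genes. The log2 ratio of mouse 2 to mouse 1 was positive, 0.09 to 0.33, in 6 members, namely the tested Defa24 group, Defa26 and Defa28. It was negative in the other 10, at -0.25 and -0.31 in Defa22 and Defa21, -0.29 to -0.79 in the Defa2 group, -0.75 to -1.93 in the Defa5 group, and -0.25 and -0.58 in the CRS1C-type pair. The 5th and 95th percentiles of all genes were -0.81 and 0.89, and only Defa34 (-1.11) and Defa35 (-1.93) lay outside them. Each ratio compares 2 mice, so these values describe those mice, with no test. The genes were measured in the same mice, so their ratios are not independent of each other.

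**Figure D4:**
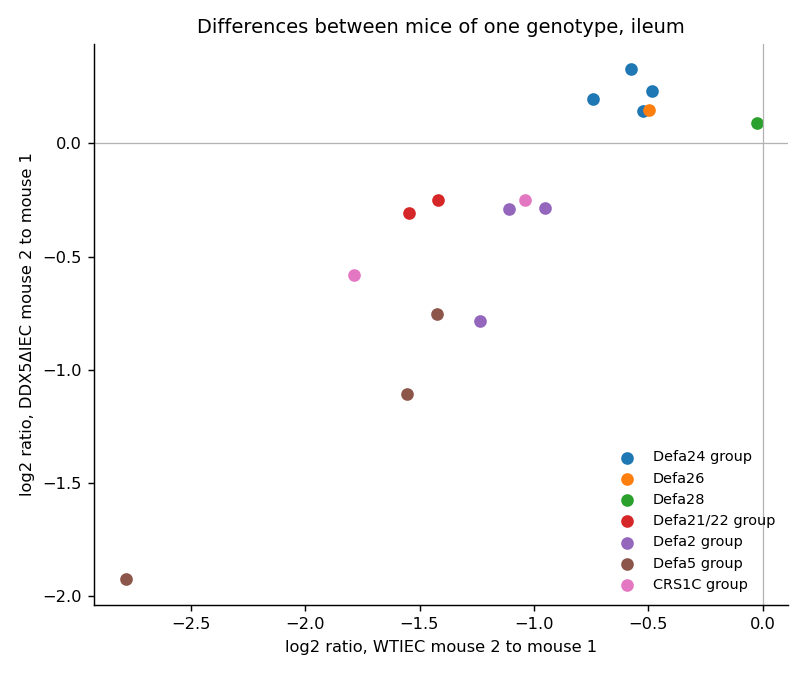
Log2 ratio of mouse 2 to mouse 1 in the ileum for the 16 tested alpha-defensins, WTIEC mice on the horizontal axis and DDX5ΔIEC mice on the vertical axis, coloured by sequence group. Genes of the Defa24 group, Defa26 and Defa28 lie above 0 on the vertical axis, at 0.09 to 0.33, and the genes of the other groups lie below it.

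The stretch before the start of the gene was compared as well, for the 12 members with a promoter in the RefSeq table (GRCm38.p6). Over the 250 bases before the start, the promoters of Defa21 and Defa22 had 96.4 to 98.0% identity to those of Defa2, Defa20 and Defa32, whereas the coding sequences of the Defa21 and Defa22 pair reached at most 89.8% identity outside their group. The promoters of Defa21 and Defa22 had 80.0 to 80.8% identity to those of Defa35, Defa36 and Defa37, and 60.7 to 78.0% to those of Defa23, Defa30 and Defa31. The hexamer CTTTGA, the core of the site for TCF/LEF factors of the Wnt pathway, was found on either strand in 12 of the 12 member promoters and in 13.8% of 32851 promoters of the same length. TATAAA, on the gene's strand, was in 11 of 12 and in 7.59% of all. The members share ancestry, so these are not independent matches, and a match is a description of the letters. The 150 bases before the start are shown for a member of each of 4 groups, with capitals for TATAAA and for CTTTGA, which reads as TCAAAG on this strand.
Defa30 (chr8:21134500-21134649, plus strand): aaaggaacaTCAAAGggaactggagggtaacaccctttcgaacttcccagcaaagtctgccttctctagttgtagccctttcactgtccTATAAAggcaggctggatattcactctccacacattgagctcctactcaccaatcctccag
Defa22 (chr8:21162127-21162276, plus strand): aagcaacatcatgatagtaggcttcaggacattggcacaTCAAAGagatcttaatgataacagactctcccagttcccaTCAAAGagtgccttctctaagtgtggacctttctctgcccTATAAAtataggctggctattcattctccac
Defa2 (chr8:21378367-21378516, plus strand): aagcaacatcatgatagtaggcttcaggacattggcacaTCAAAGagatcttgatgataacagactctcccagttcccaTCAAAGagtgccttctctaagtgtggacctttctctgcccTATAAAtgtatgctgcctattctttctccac
Defa35 (chr8:21064888-21065037, plus strand): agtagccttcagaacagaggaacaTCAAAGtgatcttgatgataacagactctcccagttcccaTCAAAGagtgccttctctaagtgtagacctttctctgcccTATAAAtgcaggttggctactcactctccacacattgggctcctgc
The windows of Defa22 and Defa2 carry both marked TCAAAG words at the same places, and that of Defa30 carries only the upstream word. TATAAA lies closest to the start in Defa22 and Defa2, farther from it in Defa35 and farthest in Defa30.

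Other genes of Paneth cells were compared on the same libraries. Of 12 genes of Paneth granule proteins other than alpha-defensins, 11 were tested and 0 were called, with a median log2 fold change of 0.32. The log2 fold change was positive in 10 of the 11, and Lyz1 was the exception. Lyz1, the lysozyme of Paneth granules, had 1655 and 867 CPM in WTIEC and 866 and 952 CPM in DDX5ΔIEC ileum, with a log2 fold change of -0.40 ± 0.27 SE (adjusted p = 0.60). Its WTIEC 1 library was the high value, as in Defa22. Mmp7, which processes the precursors, had 172 and 110 CPM against 175 and 199 CPM, with 0.44 ± 0.19 SE (adjusted p = 0.38). Mptx2, a pentraxin of Paneth cells, had 365 and 326 CPM against 449 and 476 CPM, with 0.42 ± 0.17 SE (adjusted p = 0.35). Of the regulators of Paneth cell fate and defensin expression, 0 of 16 tested were called (median 0.01), and of genes for granule packaging 0 of 12 (median -0.05). With 0.697% of all tested genes called, 0 calls in lists of this size do not show that these genes were unchanged.

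Markers of the other cells that the epithelial fraction can hold were followed beside these results, and their part in them was not tested. For crypt stem cells 0 of 11 tested genes were called, for goblet cells 0 of 8, for ileal enterocytes 0 of 9, for leukocytes 0 of 10 and for stroma 0 of 1. Of all 14068 tested genes 0.697% were called, so 0 calls in lists this short do not show that a cell type was unchanged. None of the 7 neutrophil genes, which matter because neutrophils of other species carry alpha-defensins, passed the filter on low counts, and their sum was at most 0.39 CPM in any ileum library. Chga of the enteroendocrine list was higher (0.92, adjusted p = 0.030), 1 of 5. Dclk1 of the tuft cell list (-0.83, adjusted p = 0.027), 1 of 4, and Aqp4 of the colonocyte list (-0.86, adjusted p = 0.043), 1 of 4, were lower. Without the block the adjusted p was 0.336 for Chga, 0.555 for Dclk1 and 0.305 for Aqp4, and with the block but without the 3 repeat-like genes it was 0.061, 0.058 and 0.082. DESeq2 with the block called Dclk1 (adjusted p = 0.017) and neither Chga (0.148) nor Aqp4 (0.342). By the criterion of the study, all 4 tested genes of tuft cells, the chemosensory cells of the epithelium, were lower (Dclk1, with Trpm5, Avil and Pou2f3, named after their values were seen, median log2 fold change -0.68), and 3 of 5 enteroendocrine genes (Chga, with Chgb and Pyy, named likewise) were higher (median 0.62). The tuft cell list summed to 281 and 425 CPM in WTIEC and to 185 and 234 CPM in DDX5ΔIEC ileum, and the enteroendocrine list to 59.1 and 56.2 CPM against 93.4 and 78.6 CPM, so that neither sum overlapped between the genotypes. Such separation is common with 2 mice a group. Among all tested genes, both DDX5ΔIEC mice were below both WTIEC mice in 20.5% and above them in 19.0%. By the same criterion 2 of 4 colonocyte genes were lower, and 2 of 8 goblet cell, 1 of 9 ileal enterocyte, 1 of 10 leukocyte and 0 of 11 crypt stem cell genes were higher. Over all tested genes this criterion gave 3.48% lower and 3.87% higher. Of 20 beta-defensin genes, 2 were tested and 0 were called.

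In the colon, which normally holds no Paneth cells in mice, alpha-defensin counts were at the edge of detection. The 23 genes summed to 42 and 7 counts in the WTIEC libraries and to 13 and 10 in the DDX5ΔIEC libraries. These are 2.42 and 0.343 CPM without TMM scaling in WTIEC (Wilson 95% intervals 1.79 to 3.27 and 0.166 to 0.709), and 0.770 and 0.514 in DDX5ΔIEC colon (0.450 to 1.32 and 0.279 to 0.947). WTIEC 1 was the highest colon library and WTIEC 2 the lowest, so the genotypes overlapped. No member reached the count filter in the colon, and none was tested for genotype there. In that comparison 0 of 15362 genes (0.0%) were called by edgeR, 1836 had an unadjusted p under 0.05, and DESeq2 called 117.

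Scaled to library size, alpha-defensin counts were 4435, 20098, 13370 and 19214 times as high in the ileum as in the colon library of the same number, in WTIEC 1, WTIEC 2, DDX5ΔIEC 1 and DDX5ΔIEC 2. Over both WTIEC colon libraries Defa24 had 27 counts and Defa30 13, the genes with the most counts in the ileum too. Defa24 took 23 of 42, 4 of 7, 8 of 13 and 6 of 10 of them, and the Wilson interval of its share, 40.0 to 68.8% in WTIEC 1, held its share of 47.8% in WTIEC ileum 1. Fabp6 was 1426, 464, 657 and 205 times as high in the ileum as in these colon libraries, and Lyz1 1667, 899, 384 and 1647 times. The 3 other Paneth granule genes examined had lower ratios, of 71 to 211 in Mmp7, 43 to 253 in Mptx2 and 18 to 114 in Itln1. These genes do not stand for the whole list of 12 Paneth granule genes, summed here on the scaling over all 8 libraries. In WTIEC mice the list summed to 8260 and 6421 CPM in the ileum and to 8649 and 10141 CPM in the colon. In DDX5ΔIEC mice it summed to 7182 and 8751 CPM in the ileum and to 2767 and 3220 CPM in the colon. Whether ileal RNA entered the colon libraries was not tested.

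**Figure D5:**
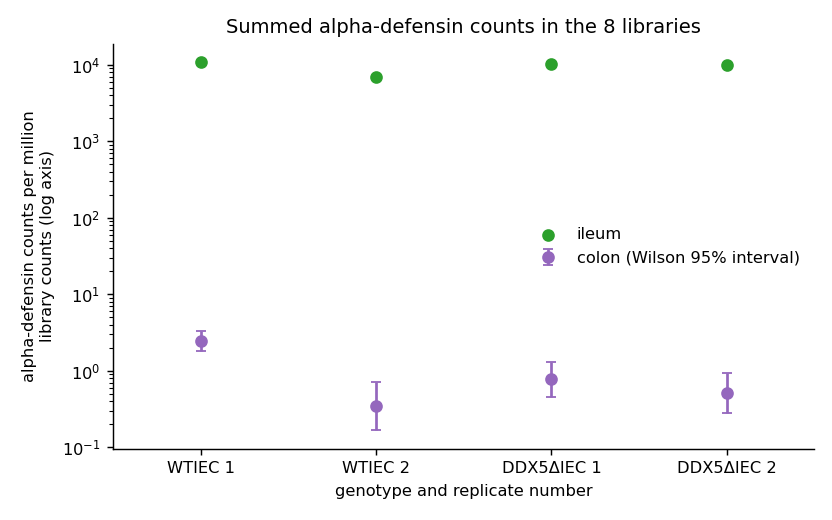
Summed counts of the 23 alpha-defensins, as CPM without TMM scaling on a log axis, in the ileum and the colon library of each genotype and replicate number, with Wilson 95% intervals for the colon. The ileum values run from 6899 to 10714 and the colon values from 0.343 to 2.42.

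Tested across all 8 libraries, 17 members passed the filter and 17 were higher in the ileum than in the colon, in WTIEC and again in DDX5ΔIEC mice. Over all genes 17.4% were higher in the ileum of WTIEC and 18.0% in that of DDX5ΔIEC mice. Members that are low in the colon pass this filter only through their ileum counts, so the number called is no support for the members as a group. On the scaling over all 8 libraries, Defa24 had a mean of 4600 CPM in WTIEC ileum and 0.692 CPM in WTIEC colon, a log2 ratio of 12.74 ± 0.73 SE (adjusted p = 8.9e-06), and in DDX5ΔIEC mice the log2 ratio was 14.01 ± 0.77 SE. Members with 0 counts in both WTIEC colon libraries allow a lower bound, from a floor of 3 counts in each library. Defa21 was at least 2400-fold, Defa5 at least 1336-fold, AY761184 at least 465-fold and Defa29 at least 189-fold higher in WTIEC ileum than in WTIEC colon.

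The difference between genotypes was compared between tissues by an interaction term. None of the 17 members passed, 0 had an unadjusted p under 0.05, and DESeq2 called 0 as well, while edgeR called 2 of 16178 genes (0.0124%). With at most 42 defensin counts in a colon library, an effect of the genotype in the colon was not detectable at this depth.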

How the data were processed

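Ribosome-depleted, stranded RNA had been sequenced in paired ends. The authors aligned the reads to mm10 with STAR 2.6.1a, counted uniquely mapped reads over exons of GENCODE vM19 with featureCounts, and tested with DESeq2 1.18.1 with a harvest covariate. The deposited tables hold raw counts for each gene and library, which were used here, and exon lengths in bases. Their columns of the authors' normalized values, fold changes and p-values were not used. Because multimapping reads were left out, near-identical paralogs lose reads.

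Counts were fitted in R 4.3.3 with edgeR 4.0.16 (filterByExpr with a minimum count of 10, TMM, quasi-likelihood, Benjamini-Hochberg, threshold 0.05), within a tissue with the replicate number as a block, which stands in for the harvest covariate of the study, not given per library. The pairing is assumed. Same-numbered WTIEC and DDX5ΔIEC libraries deviated together in the ileum (correlation 0.244 over 14065 genes) and little in the colon (0.037). All 8 libraries without a block served the comparisons of tissues and the interaction. The scripts were tested on simulated data. The SE printed with an edgeR log2 fold change was not fitted directly. It is the absolute log2 fold change divided by the square root of the quasi-likelihood F statistic. DESeq2 1.42.0 was an alternative. Date-like gene symbols were replaced through the gene identifier (26 in the ileum table, 25 in the colon table).

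Sequences came from GENCODE vM21 (GRCm38, the build of the files), in which all 23 members kept their identifier version, and from RefSeq. Words of 100 bases were compared on both strands. Coding sequences were aligned with Biopython 1.88. The sequence groups were set after values were seen, and the members and gene lists were chosen with earlier results of these data known. By the rule for named genes, every member tested in the ileum was named, the others by number and range, together with called genes of the lists. Totals of counts set the precision, and intervals cover counting error only.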

Additional observations from a re-analysis of the deposited data

How the results depend on the processing

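The number of alpha-defensins called between genotypes in the ileum, 2 with the replicate block, depended on the fit. It was 0 with no replicate block, 0 with all 8 libraries in one fit and 1 by DESeq2 with the block. It stayed at 2 with RLE scaling and without the 3 repeat-like genes, and was 3 without the filter, where Defa35 was added. With each library left out it was 0 to 0, in fits that had no block, so the cause was not tested. The adjusted p ran from 7.5e-14 to 1.00 for AY761184 and from 1.2e-22 to 1.00 for Defa29 over the alternatives, and both log2 fold changes stayed positive, from 1.05 to 2.09 and from 1.16 to 2.95 with a library left out. The median log2 fold change of the members was 0.32 to 0.40 otherwise and 0.02 to 0.82 with a library left out. Genes that fell short of the test changed sign: Defa22 was at -0.11 without the block and -0.12 with all 8 libraries, and Defa28 at -0.0068 without the filter. With a library left out the log2 fold changes ran from -0.66 to 0.76 in Defa22, -0.50 to 1.05 in Defa21, -0.060 to 1.37 in Defa5, -0.21 to 0.90 in Defa2, -0.23 to 0.72 in Defa20, -0.19 to 1.45 in Defa34, -0.0084 to 0.49 in Defa26, -0.71 to 0.52 in Defa32, -0.055 to 3.26 in Defa35, -0.0048 to 0.076 in Defa28 and -0.87 to 0.067 in Lyz1. Over all genes of the ileum, 98 were called, against 1 without the block, 7 with all 8 libraries in one fit, 20 without the repeat-like genes, 39 by DESeq2, 423 without the filter and 1 to 23 with a library left out. The 17 members called between tissues were 17 under every alternative run in DDX5ΔIEC, and in WTIEC 15 to 17 with a library left out (15 without either WTIEC colon library) and 17 under the others. The 0 called in the interaction stayed 0 under the alternatives that kept all 8 libraries. In the colon 0 members were tested in the main fit, by DESeq2, with RLE scaling and without the block, so none could be called there. Of the 7 members tested there without the filter and the 17 with all 8 libraries in one fit, 0 were called. The alternatives for the fits between tissues included 1 with the mouse, assumed from the replicate number, as a replicate block, which the main fit did not have. Ddx5 had an adjusted p of 0.027 in the ileum, 0.30 without the block and 0.056 without the repeat-like genes. Depth limits the colon, where 16 members were at 0 in every library.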
